A study of Saccharomyces cerevisiae with 8 samples.

Results

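The DNA repair and checkpoint genes of budding yeast examined here were 59 genes on 63 of the 6216 spots of the array. They were chosen by name: a spot had to carry exactly 1 gene symbol in the platform annotation, and the symbol had to have a stem used for repair, checkpoint and replication genes, such as RAD, MEC, TEL, POL, RFC, MSH, REV or SLX, followed by a number. The rule itself uses no measured value, although it was set with earlier results of these data known. After spots of the same gene were averaged the array held 5999 features, of which the 59 genes are a part, and MMS2, POL30, REV1 and RFC1 had 2 spots each. A further 7 genes that fit the rule were found only on spots that carry several symbols, and they were not analysed here.

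The study compared sub1Δ cells, which lack the gene for the transcription coactivator Sub1, with wild-type yPH500 cells. Both strains were grown in YPD at 30 °C to exponential phase. In the 4NQO condition, 1 µg/µl of 4-nitroquinoline 1-oxide, a compound that forms bulky adducts on purines, was added and the cells were kept for 1 h more. The untreated condition was an aliquot taken at time 0, so the agent and the added hour cannot be told apart. Total RNA of the 2 strains was labelled with Cy3 and Cy5 and hybridised together to spotted arrays of open reading frames. Each condition had 2 experiments, described by the submitters as independent, and each experiment had 2 arrays: a direct array with sub1Δ in Cy5 and an array with the dyes exchanged. Every value below is a log2 ratio of sub1Δ over wild type, so a negative value means less signal in sub1Δ cells. Fewer cells expressing a gene and less of its RNA per cell cannot be told apart in such cultures. The 2 arrays of an experiment hold the same RNA and were averaged, which leaves n = 2 per condition. The arrays set strain against strain and never treated against untreated RNA, so how a gene responded to 4NQO within a strain was not measured. SUB1 itself had no spot of its own symbol alone, and the loss of its transcript was not checked.

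Repair genes divide by the lesion they handle. Nucleotide excision repair cuts out bulky adducts such as those of 4NQO, base excision repair replaces damaged single bases, and recombination and end joining mend broken ends. Damage met by a replication fork is bypassed by translesion polymerases and by ubiquitin marks on the sliding clamp. The kinases Mec1 and Tel1 sense the damage and, through Rad53, Chk1 and Dun1, arrest the cycle and raise nucleotide supply.

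None of the 20 repair genes that could be tested after 4NQO differed between the strains at an adjusted p of 0.05 (limma with Benjamini-Hochberg adjustment over all features tested), against 19.5% of the 2194 features tested (9.07% higher and 10.4% lower in sub1Δ cells). Of the 20, 19 had a ratio below 0 (95%), while 66.5% of all tested features did, and after centring each array on its median 17 of the 20 did. Their median ratio was -1.10, against -0.56 over all tested features. With the dye-swapped arrays taken as already turned by the authors, only 7 of the 20 were below 0 and the median was 0.19. In untreated cells 24 repair genes could be tested and none passed, beside 0.0289% of 3457 features (1 feature), and their median ratio was -0.02, against 0.02 over all. That reading changed the sign of the ratio for 14 of the 20 genes, POL1 among them, and the labels do not state whether the swapped arrays were turned. The directions below assume that they were not.

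Missing values decided which of the 59 genes could be tested. A value was present in 350 of the 472 combinations of repair gene and array (74.2%), against 79.6% over all features. Only 8 of the 59 genes (13.6%) had a value on all 8 arrays, compared with 27.6% of all features, although the median was 7 arrays in both. Both experiments gave a dye-swap mean for 20 genes in the 4NQO condition (33.9%, against 36.6% of all features) and for 24 genes in the untreated one (40.7%, against 57.6%). For 23 genes neither condition could be tested. RAD53, the effector kinase of the checkpoint, and RAD61, a cohesin release factor, had a value on 1 array each. REV3, the catalytic subunit of polymerase zeta, and TOF2, a nucleolar silencing protein, had values on 2. Why a spot lacks a value is not stated in the labels.

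**Figure D1:**
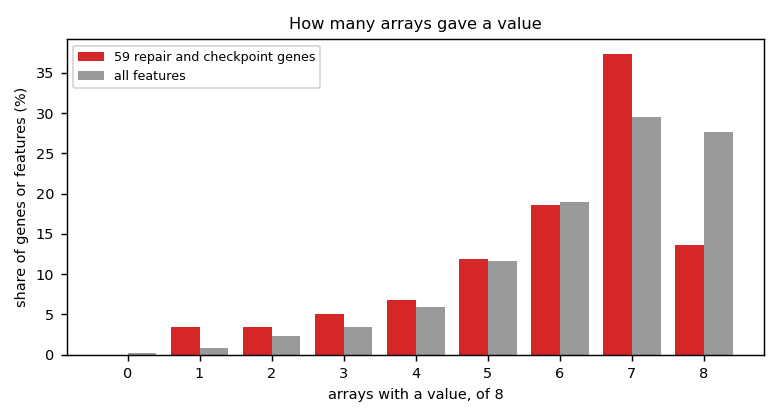
Number of arrays, out of 8, on which each gene or feature had a deposited log2 ratio, as a percentage of the 59 repair genes and of all 5999 features. The repair genes peak at 7 arrays (22 genes), and 8 of them reach all 8 arrays.

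Of all 6216 spots, between 266 and 3234 had none, the most on the second 4NQO experiment's dye-swapped array, where 30 of the 59 repair genes were read. The direct array of 4NQO experiment 1 read 58. The 2 arrays of a dye swap often disagreed for these genes. After 4NQO they gave the same sign for 25 of 43 genes in experiment 1 (58.1%, against 62.8% of all features) and for 24 of 28 in experiment 2 (85.7%, against 71.8%). In untreated cells they did so for 20 of 36 in experiment 1 (55.6%, against 61.5%) and for 14 of 33 in experiment 2 (42.4%, against 56.4%). Across all features the turned arrays of untreated experiment 2 were negatively correlated (Pearson r = -0.20 across features, which are not independent replicates and share 1 pair of RNA samples). The other 3 pairs had r of 0.20 to 0.33. Each ratio below carries this disagreement, and its SD is over the 2 experiments.

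**Figure D2:**
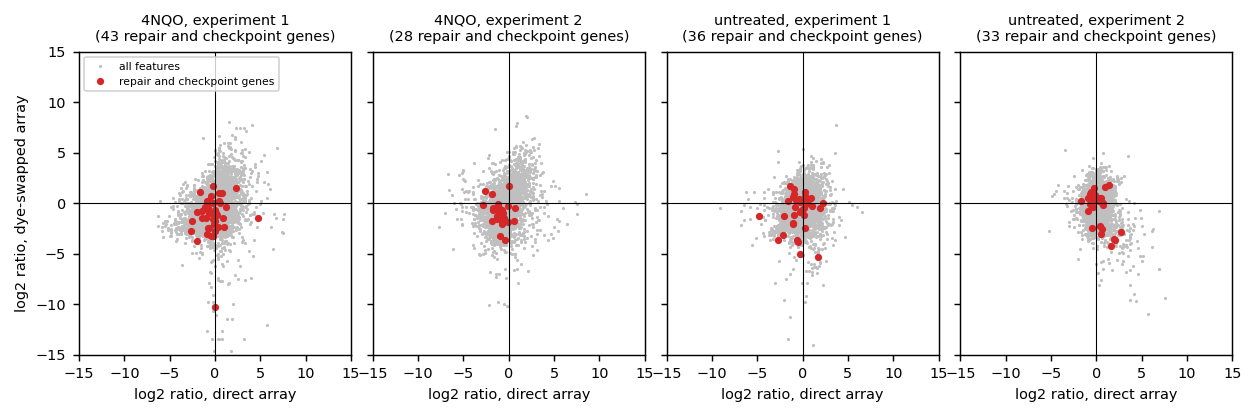
Log2 sub1Δ over wild type of each feature on the dye-swapped array against its direct partner, for the 2 experiments with 4NQO and the 2 without, repair genes drawn over all features. Points in the upper right and lower left corners have the same sign on both arrays, which held for 24 of 28 repair genes in 4NQO experiment 2 and 14 of 33 in untreated experiment 2.

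The plot of every value by gene and array shows the members by role, with gaps where a spot had no value. Of the 179 values of repair genes on the 4NQO arrays, 133 lay below 0 (74.3%), compared with 60.6% of the values of all features. With the swapped arrays taken as already turned, 89 of 179 did (49.7%), compared with 49.5% of all features. On the untreated arrays 98 of 171 did (57.3%), compared with 53.3%. On the 2 direct 4NQO arrays, which do not depend on that reading, 67.2% and 74.5% of the repair genes read were below 0, against 54.1% and 63.6% of all features. On the 2 direct untreated arrays 69.6% and 49.0% were, against 55.3% and 49.1%. All direct arrays carry sub1Δ in Cy5, so dye and strain cannot be told apart on them. On the 2 dye-swapped 4NQO arrays 72.7% and 90.0% were below 0, against 63.1% and 64.0%. If these had already been turned, the shares were 27.3% and 10.0%, against 36.9% and 36.0%.

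**Figure D3:**
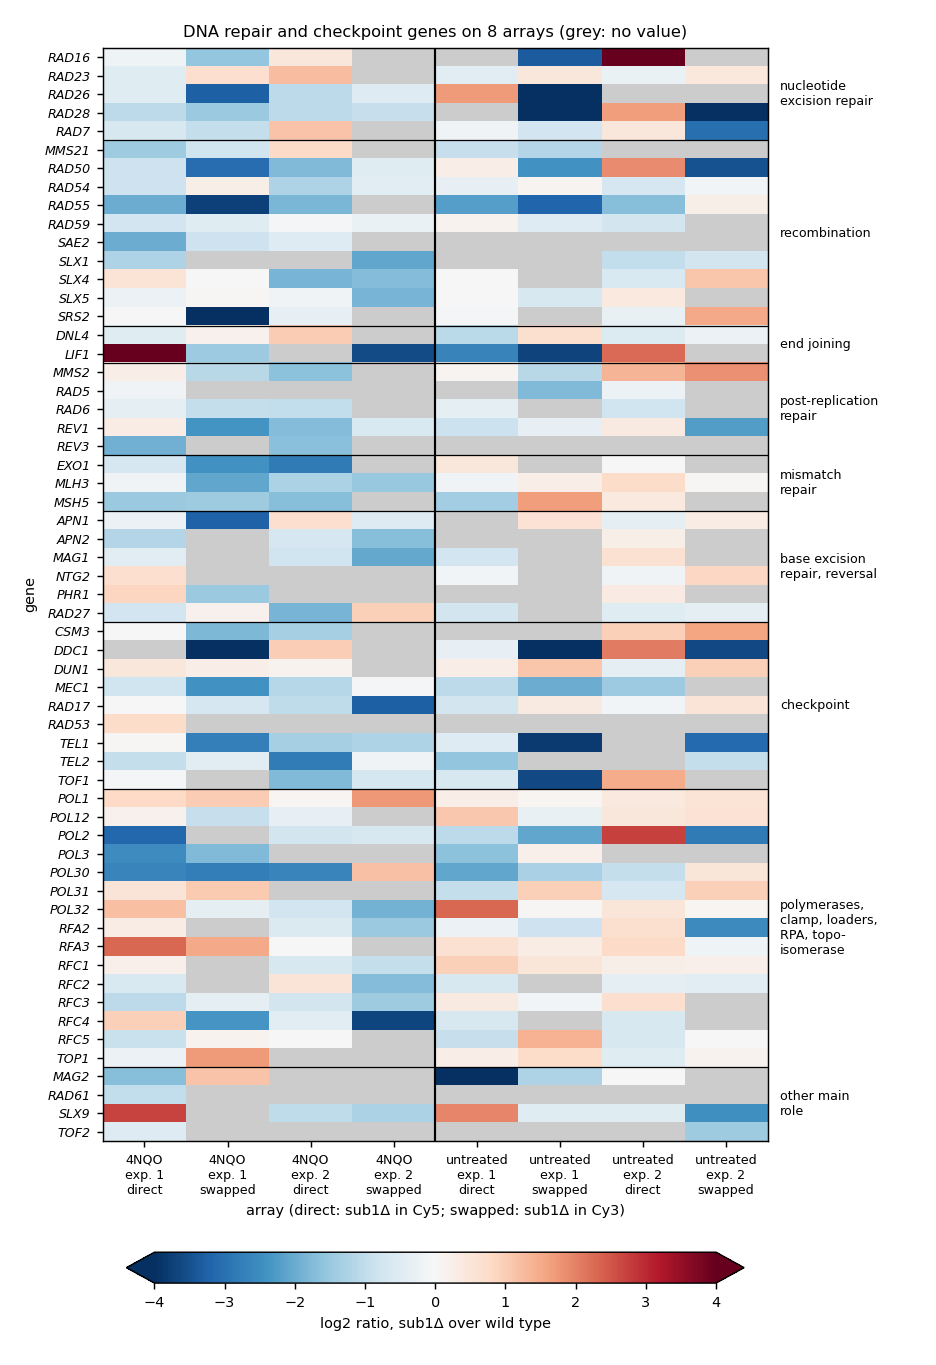
Deposited log2 ratios, turned to sub1Δ over wild type, of the 59 repair and checkpoint genes (down the page, grouped by role) on the 8 arrays, 4NQO left of untreated. Blank cells are spots without a value, and negative values, lower in sub1Δ cells, fill most of the 4NQO columns (133 of 179, or 89 of 179 if the dye-swapped arrays had already been turned).

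Sensor and effector genes of the checkpoint were read on 53 of 72 combinations of gene and array. The 4 values per condition are given in the order experiment 1 direct, experiment 1 dye-swapped, experiment 2 direct, experiment 2 dye-swapped, here and below. MEC1, the sensor kinase that responds to single-stranded DNA, had -0.80, -2.42, -1.15 and -0.09 after 4NQO, a mean of -1.11 ± 0.70 (SD, n = 2; limma adjusted p = 0.167). It was below 0 on each of these arrays and also on the 3 untreated arrays that read it, at -1.04, -1.99 and -1.46. The kinase gene TEL1, whose product responds to broken ends, had 0.04, -2.72, -1.32 and -1.23 after 4NQO. The mean was -1.31 ± 0.04 (SD, n = 2), and the small SD hides a gap of more than 2 log2 units between the arrays of experiment 1. Its limma p was 0.0339 before adjustment and 0.107 after. With spot blocks centred the TEL1 ratio was -1.86 and passed (limma adjusted p = 0.0212), whereas it was -0.85 (adjusted p = 0.323) with array medians centred, -0.69 (adjusted p = 0.587) with arrays also scaled, and 0.67 with the swapped arrays taken as already turned.

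TEL2, needed for the stability of both kinases, had -0.96, -0.45, -2.80 and -0.14 after 4NQO, with a mean of -1.09 ± 0.54 (SD, n = 2; limma adjusted p = 0.173). All 4 lay below 0, and so did its 2 untreated values of -1.59 and -0.94. RAD17, a subunit of the checkpoint clamp, had 0.03, -0.68, -1.02 and -3.27 after 4NQO, a mean of -1.23 ± 1.29 (SD, n = 2; limma adjusted p = 0.135). Its most negative value came from the array with the fewest values, and without that array the RAD17 ratio was -0.67 (limma adjusted p = 0.410). Without experiment 1 it was -2.15 and without experiment 2 it was -0.32, each from a single dye-swap mean. With the swapped arrays taken as already turned it was 0.74. Its untreated values, -0.72, 0.35, -0.12 and 0.51, lay on both sides of 0. DDC1, another subunit of that clamp, had -0.34, -5.04, 2.08 and -3.62 in untreated cells. Both dye-swapped arrays were far below their direct partners, and the untreated mean was -1.73 ± 1.36 (SD, n = 2; limma adjusted p = 0.531, 0.0112 before adjustment). DUN1, the kinase that relieves repression of ribonucleotide reductase genes, was above 0 on its 3 arrays after 4NQO, at 0.44, 0.26 and 0.15. The fork protection genes TOF1 and CSM3 were both below 0 on their 3 arrays after 4NQO, with values between -1.79 and -0.01. RAD53 was read once, at 0.73 on the direct array of 4NQO experiment 1, so its strain difference could not be assessed.

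Nucleotide excision repair, which acts on 4NQO adducts, was represented by 5 genes, 2 of them testable after 4NQO. RAD28, the yeast relative of the human CSA gene, had -1.04, -1.47, -1.06 and -0.93 after 4NQO, the narrowest spread over 4 arrays among the genes described so far. The mean was -1.13 ± 0.18 (SD, n = 2; limma adjusted p = 0.155). In untreated cells it had -5.02 on the dye-swapped array of experiment 1, with 1.66 and -4.21 on the direct and dye-swapped arrays of experiment 2. RAD26, the ATPase of transcription-coupled repair, had -0.49, -3.27, -1.05 and -0.51 after 4NQO, a mean of -1.33 ± 0.78 (SD, n = 2; limma adjusted p = 0.109, 0.0354 before adjustment). It too was below 0 on each 4NQO array, while its untreated values of 1.70 and -5.30 came from the 2 arrays of 1 experiment. The global genome repair genes RAD7 and RAD16 and the damage recognition gene RAD23 each had 3 values after 4NQO, on both sides of 0, from -1.56 to 1.24. Untreated RAD23 averaged 0.04 ± 0.06 and untreated RAD7 -0.87 ± 0.58 (SD, n = 2 each).

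Recombination and break repair genes were below 0 in 30 of their 34 values after 4NQO and in 20 of 28 in untreated cells. Over all features 60.6% and 53.3% of the values were. The arrays of an experiment share their RNA, and the counts take the swapped arrays as not yet turned. RAD50, the coiled-coil ATPase of the complex that binds broken ends, had -0.84, -3.06, -1.76 and -0.48 after 4NQO. Every array was below 0, the mean was -1.54 ± 0.59 (SD, n = 2), 2.90-fold lower in sub1Δ cells, and the limma adjusted p was 0.0589 (0.0134 unadjusted). Centring each block of spots on the slide brought RAD50 past the threshold, at -1.81 (limma adjusted p = 0.0212), but it was -1.08 (adjusted p = 0.211) with array medians centred, -0.95 (adjusted p = 0.413) with arrays also scaled, and 0.24 with the swapped arrays taken as already turned. Untreated RAD50 values were 0.26, -2.42, 1.90 and -3.50, with the direct arrays above 0 and the dye-swapped ones below, and averaged -0.94 ± 0.20 (SD, n = 2; limma adjusted p = 0.931). That small SD is between 2 experiment means that each average values of opposite sign. Without the dye-swapped array of untreated experiment 2 the untreated ratio was 0.41.

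RAD55, which acts in recombinational repair, was below 0 on 6 of the 7 arrays that read it. It had -1.98, -3.73 and -1.83 after 4NQO, where it lacked the second dye-swap pair and could not be tested. On experiment 1 alone the ratio was -2.85, from a single dye-swap mean. Its untreated values were -2.21, -3.16, -1.70 and 0.22, with 3 of the 4 far below 0. They averaged -1.71 ± 1.38 (SD, n = 2; limma adjusted p = 0.537, 0.0122 before adjustment). DDC1 and RAD55 were the only 2 of the 24 untreated members with an unadjusted p under 0.05 (8.33%, against 5.73% of all features), and both were lower in sub1Δ cells, as were 4.69% of all features. With the swapped arrays taken as already turned, the untreated ratio was 2.6 for DDC1 and -0.24 for RAD55.

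RAD59, a strand-annealing relative of RAD52, had -0.77, -0.50, -0.09 and -0.28 after 4NQO, all below 0 and all small. Its mean was -0.41 ± 0.32 (SD, n = 2; limma adjusted p = 0.605). RAD54, a DNA translocase of recombinational repair, had -0.84, 0.22, -1.22 and -0.42 after 4NQO and averaged -0.56 ± 0.36, with -0.26 ± 0.20 in untreated cells (SD, n = 2 each). It had a value on all 8 arrays and stayed within 1.22 of 0 on each of them.

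SLX4, a scaffold for structure-specific nucleases, had 0.56, -0.02, -1.86 and -1.72 after 4NQO, so that experiment 2 was low and experiment 1 near 0 (mean -0.76 ± 1.45, SD, n = 2). SLX5, part of a SUMO-targeted ubiquitin ligase, had -0.23, 0.04, -0.14 and -1.86 after 4NQO, a mean of -0.55 ± 0.64 (SD, n = 2). For SLX5 only the dye-swapped array of experiment 2 was away from 0, and neither gene passed the limma test (adjusted p of 0.367 for SLX4 and 0.487 for SLX5). SRS2, a DNA helicase that limits recombination, gave -10.34 after 4NQO on the first experiment's dye-swapped array and -0.01 and -0.34 on the direct arrays. That single value lies far from all others of the gene, and no second dye-swap pair was there to set beside it. SAE2, which starts the trimming of broken ends, was read only after 4NQO, at -1.97, -0.84 and -0.51, all below 0. SLX1, the nuclease partner of SLX4, had 4 values in all, from -2.09 to -0.74. MMS21, the SUMO ligase of the Smc5-Smc6 complex, had 5, from -1.42 to 0.76.

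The end joining genes DNL4, which encodes DNA ligase IV, and LIF1, which encodes its partner, could not be tested after 4NQO. DNL4 had values between -1.07 and 1.01, and its untreated mean was -0.30 ± 0.12 (SD, n = 2). LIF1 ranged from -3.69 to 4.75 over 6 arrays, with 4.75 and -1.46 on the 2 arrays of 4NQO experiment 1.

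Of the post-replication and translesion genes, only REV1 could be tested after 4NQO. REV1, the scaffold of translesion synthesis, had 0.31, -2.39, -1.75 and -0.61 after 4NQO, with 3 of 4 arrays below 0. The mean was -1.11 ± 0.10 (SD, n = 2; limma adjusted p = 0.150), and the untreated mean was -0.77 ± 0.25 (SD, n = 2). On the direct arrays after 4NQO its 2 spots gave 0.94 and -0.32 in experiment 1, and -0.54 and -2.96 in experiment 2. RAD6, the ubiquitin-conjugating enzyme that marks the sliding clamp, was below 0 on all 5 arrays that read it, from -0.99 to -0.37. RAD5, the ligase that extends that mark, had 3 values between -1.76 and -0.13, and REV3 had -1.92 and -1.66, both after 4NQO. MMS2, a partner of that ligation, ran from -1.65 to 1.83.

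All 10 array values of the mismatch repair genes after 4NQO lay below 0, and 2 of 9 did in untreated cells. Over all features 60.6% and 53.3% of the values did. With the swapped arrays taken as already turned, 6 of 10 after 4NQO and 5 of 9 in untreated cells did. On that reading 49.5% and 49.0% of the values of all features did. MLH3, a MutL relative, had -0.14, -2.07, -1.27 and -1.53 after 4NQO, against -0.14, 0.25, 0.72 and 0.06 in untreated cells. With 4NQO, 3 of its 4 values lay below every untreated value, and the other equalled the lowest of them to 2 decimals. The means were -1.25 ± 0.21 with 4NQO (limma adjusted p = 0.111, 0.0364 before adjustment) and 0.22 ± 0.24 without (SD, n = 2 each). The difference of -1.47 (SE 0.79) did not pass (limma adjusted p = 0.440). With array medians centred the 4NQO ratio of MLH3 was -0.80, and with the swapped arrays taken as already turned it was 0.55 and the difference 0.48. MSH5, a meiotic MutS relative, had -1.47, -1.42 and -1.71 after 4NQO and -1.39, 1.66 and 0.38 without it. EXO1, an exonuclease used in mismatch repair and end resection, had -0.68, -2.43 and -2.82 after 4NQO and 0.45 and 0.03 without it. These last 2 genes lacked a second dye-swap mean and could not be tested.

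Base excision repair and direct reversal genes were the least often read of the repair roles, together with the post-replication genes, at 62.5% of possible values each. APN1, the main endonuclease for sites that have lost a base, had -0.25, -3.23, 0.67 and -0.51 after 4NQO, a mean of -0.83 ± 1.29 (SD, n = 2; limma adjusted p = 0.313). Its mean rested on 1 low array. RAD27, the flap endonuclease, had -0.78, 0.18, -1.86 and 0.95 after 4NQO, with direct arrays below 0 and dye-swapped ones above (mean -0.38 ± 0.11, SD, n = 2; limma adjusted p = 0.632). The glycosylase gene MAG1, for alkylated bases, and the second such endonuclease gene, APN2, were below 0 on all of their 3 arrays after 4NQO, from -2.06 to -0.44. NTG2, a glycosylase gene for oxidised bases, had 4 values between -0.13 and 0.83, and PHR1, the photolyase gene, had 3 between -1.47 and 0.86.

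Replication polymerases, the clamp and its loaders were the best read role, at 84.2% of possible values, with 28 of 47 values below 0 after 4NQO and 24 of 54 in untreated cells. Over all features 60.6% of the values were below 0 after 4NQO and 53.3% in untreated cells. POL30, which encodes the sliding clamp PCNA, was low on most 4NQO arrays. Its values were -2.65, -2.78, -2.63 and 1.18 after 4NQO, and 3 arrays lay close together while the dye-swapped array of experiment 2 had the opposite sign. The mean of -1.72 ± 1.41 (SD, n = 2) is 3.29-fold lower in sub1Δ cells, with a limma adjusted p of 0.0566. With the swapped arrays taken as already turned it was -0.92. Without experiment 2 the ratio was -2.71 and without experiment 1 it was -0.73, each from a single dye-swap mean. The 2 spots of POL30 on that discordant array gave 1.97 and 0.38, and on the other 3 arrays they gave values from -3.75 to -1.51, so both spots carry the pattern. Untreated POL30 was -2.08, -1.29, -0.94 and 0.49, again with the dye-swapped array of experiment 2 alone above 0, and averaged -0.96 ± 1.03 (SD, n = 2).

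POL1, the catalytic subunit of polymerase alpha, lay on the other side of 0. Its values were 0.81, 1.01, 0.08 and 1.74 after 4NQO, against 0.27, 0.08, 0.38 and 0.54 in untreated cells, and all 8 were above 0. The means were 0.91 ± 0.00 with 4NQO (1.88-fold higher in sub1Δ cells, limma adjusted p = 0.227) and 0.32 ± 0.20 without (SD, n = 2 each). It was the only repair gene above 0 on all 4 arrays after 4NQO (5% of the 20, against 13.2% of all tested features). Without the dye-swapped array of 4NQO experiment 2 its ratio was 0.49, and with the swapped arrays taken as already turned it was -0.47. POL12, the regulatory subunit of the same polymerase, ranged from -0.93 to 1.07 on 7 arrays.

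Each 4NQO dye-swap mean present for the 5 clamp loader genes was below 0, while their single arrays and their untreated means lay on both sides of 0. Of these genes only RFC3 and RFC4 had both 4NQO means. With the swapped arrays taken as already turned, the 4NQO ratio of RFC4 was 1.63. RFC4 had 0.95, -2.35, -0.45 and -3.66 after 4NQO, with both dye-swapped arrays far below their direct partners, and a mean of -1.38 ± 0.95 (SD, n = 2; limma adjusted p = 0.102, 0.0316 before adjustment). RFC3 had -1.05, -0.37, -0.75 and -1.41 after 4NQO, all below 0, and averaged -0.89 ± 0.26 (SD, n = 2; limma adjusted p = 0.248). RFC1, the large subunit, was above 0 on all 4 untreated arrays, from 0.20 to 0.96, and had 0.20, -0.64 and -0.95 after 4NQO. RFC2 had values from -1.74 to 0.53 and was below 0 on its 3 untreated arrays. RFC5 had values from -0.91 to 1.40, and its untreated mean was -0.04 ± 0.41 (SD, n = 2).

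POL32, a small subunit of polymerase delta, had 1.21, -0.39, -0.77 and -1.90 after 4NQO, against 2.29, 0.04, 0.49 and 0.09 in untreated cells. All untreated values were above 0 and 3 of the 4 with 4NQO were below it. The means were -0.46 ± 1.23 with 4NQO (limma adjusted p = 0.575) and 0.73 ± 0.62 without (SD, n = 2 each), and the difference of -1.19 (SE 0.84) did not pass (limma adjusted p = 0.547). POL3, the catalytic subunit of that polymerase, had 4 values from -2.51 to 0.19, and POL31, its second subunit, had 6 from -0.94 to 1.04. POL2, the catalytic subunit of polymerase epsilon, was below 0 on its 3 arrays after 4NQO, from -3.15 to -0.64. Of the single-strand binding genes, RFA3 was above 0 on its 3 arrays after 4NQO, at 2.30, 1.52 and 0.03, and RFA2 ranged from -2.54 to 0.63 over 7 arrays. TOP1, encoding topoisomerase I, had 6 values from -0.47 to 1.69. The other genes matched by name, whose main roles lie elsewhere, were MAG2, SLX9, RAD61 and TOF2, and their values ranged from -4.77 to 2.69.

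**Figure D4:**
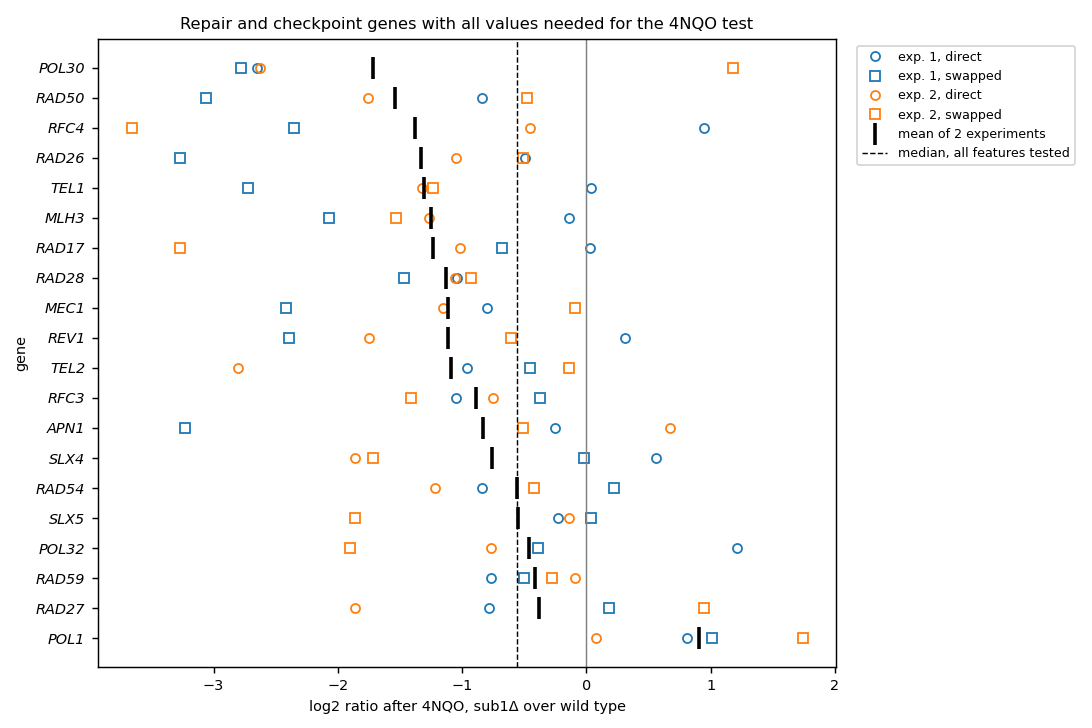
Mean log2 sub1Δ over wild type of the 20 repair genes testable after 4NQO, as black bars, over the single values of the 4 arrays (circles direct, squares dye-swapped, blue experiment 1, orange experiment 2). The dashed line is the median of all features tested (-0.56). All means but that of POL1 lie below 0 (7 of 20 do if the dye-swapped arrays had already been turned), and the spread between the experiments is widest for SLX4 (SD 1.45) and POL30 (SD 1.41).

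Set against the rest of the array, the 4NQO ratios of the repair genes were one-sided but not called, if the swapped arrays had not yet been turned. An unadjusted p under 0.05 was found for 6 of the 20 (30%), all lower in sub1Δ cells: POL30, RAD50, RFC4, TEL1, RAD26 and MLH3. Over all tested features 37.5% had such a p, and 24.1% had it in the lower direction. With the swapped arrays taken as already turned, 7 of the 20 were below 0. The ratios of the 6 named genes were then, in that order, -0.92, 0.24, 1.63, 0.67, 0.56 and 0.55. The counts that follow again take those arrays as not yet turned. Below 0 on all 4 arrays were 8 of the 20 (40%, against 25.4%), namely RAD50, RAD28, MEC1, TEL2, MLH3, RAD26, RFC3 and RAD59. Among the 26 genes read on exactly 3 of the 4 arrays, 11 were below 0 on all 3 (42.3%, against 31.3%) and RFA3 and DUN1 were above 0 on all 3 (7.69%, against 16.2%). The median of the 20 was -0.71 in experiment 1, where all features stood at -0.30, and -1.04 in experiment 2, where they stood at -0.73. The adjusted p of the 20 ran from 0.0566 to 0.632. Of the 428 features called after 4NQO, 199 were higher and 229 lower in sub1Δ cells, but after array medians were centred the split was 195 higher and 17 lower.

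In untreated cells as many repair genes lay below 0 as above it, but the low side reached further, if the swapped arrays had not yet been turned. Of 24, 12 were below 0 (50%, against 49.2%), with means from -1.73 for DDC1 to 0.73 for POL32. Their quartiles were -0.78 and 0.33, against -0.41 and 0.41 over all tested features. None was below 0 on all 4 arrays, against 9.23% of all features, and 3 were above 0 on all 4 (12.5%, against 10.3%): RFC1, POL1 and POL32. In untreated experiment 2, DDC1, POL2, RAD28, RAD50, RAD7, REV1 and RFA2 were above 0 on the direct array and below -2 on the dye-swapped one. These 7 of 33 genes read on both arrays (21.2%) compare with 5.73% of all features, and the limit was chosen after the values were seen. The share of the dye, the array and the strain in that pattern was not tested.

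The change of the strain ratio between conditions could be tested for 8 repair genes. None passed, as none of the 1654 features did (0%), and no member had an unadjusted p under 0.05, against 13.7% of all features (limma). Of the 8 differences, 4NQO minus untreated, 7 were below 0 (87.5%, against 59.5%), and 5 of 8 were when array medians were centred. With the swapped arrays taken as already turned, 5 of 8 were below 0 too and 4 of the 8 changed sign. Beside MLH3 and POL32, the differences were RAD17 at -1.24 (SE 0.84), POL30 at -0.76 (SE 0.88), RAD50 at -0.60 (SE 0.80), REV1 at -0.34 (SE 0.79) and RAD54 at -0.31 (SE 0.79). POL1 alone was above 0, at 0.59 (SE 0.78). Every one of these estimates lay within 2 of its standard errors of 0. For RAD50 the difference depended on 1 array: without the dye-swapped array of untreated experiment 2 it was -1.95.

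Some members are neighbours in the genome by locus tag. RFC5 lies next to POL30, POL3 next to DUN1 and APN1 next to RAD27, and whether signal from transcripts that overlap these spots was shared was not tested. In the 4NQO arrays POL30 was low on 3 of 4 while RFC5 had -0.90, 0.13 and 0.02.

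A list of other repair and replication genes with names outside the rule, chosen with earlier results of these data known, held 23 genes. Of these, 12 could be tested in untreated cells, where 10 were below 0, against 49.2% of all tested features. The median of the 12 was -0.74, against 0.02 over all. This count and this median take the swapped arrays as not yet turned. After 4NQO 7 could be tested and 1 passed (19.5% of all features did), CHK1, the effector kinase that acts beside Rad53. It had -1.12, -2.09, 0.39 and -4.57 after 4NQO, a mean of -1.85 ± 0.34 (SD, n = 2; limma adjusted p = 0.0346), and the lowest value came from the array with the fewest values. Without that array the ratio was -0.61 and did not pass, and no alternative processing that gave CHK1 a value kept its call. With the dye-swapped arrays taken as already turned it was 1.48. DPB3, a subunit of polymerase epsilon, was not called but even across arrays, at -1.49, -1.68, -1.99 and -1.02 (mean -1.54 ± 0.05, SD, n = 2; limma adjusted p = 0.0659). In untreated cells none of 12 passed, and 3 had an unadjusted p under 0.05, as did 5.73% of all features: DPB4, another subunit of that polymerase (-1.76 ± 2.22), NSE3 of the Smc5-Smc6 complex (-1.35 ± 1.01) and PRI2 of primase (-1.28 ± 0.15; SD, n = 2 each). The DPB4 mean rested on 1 low array, with untreated values of -6.48, -0.19, -0.89 and 0.52.

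Downstream of the checkpoint, the ribonucleotide reductase genes RNR2 and RNR4 were called higher in sub1Δ cells after 4NQO, as were 9.07% of all tested features. RNR2 had 1.09, 3.71, 1.59 and 3.47 (mean 2.46 ± 0.09, SD, n = 2; 5.52-fold, limma adjusted p = 0.00995), and RNR4 had 0.31, 4.78, 2.39 and 3.35 (mean 2.71 ± 0.23, SD, n = 2; 6.54-fold, limma adjusted p = 0.00775). All 8 values were above 0. In untreated cells the means were 0.66 ± 0.17 for RNR2 and 0.92 ± 0.77 for RNR4 (SD, n = 2 each). The differences, 4NQO minus untreated, of 1.8 and 1.79 did not pass (limma adjusted p = 0.328 and 0.333). The upstream kinase gene DUN1 stayed within 0.44 of 0 on its 3 arrays after 4NQO. It could not be tested there, and kinase activity was not measured. Without the dye-swapped array of 4NQO experiment 2 neither 4NQO ratio passed, at 1.99 for RNR2 and 2.47 for RNR4. Both calls were also lost without the untreated experiment 2 dye-swapped array, with features on all 8 arrays only and with 1 array of a dye swap allowed, and with the dye-swapped arrays taken as already turned both ratios were below 0 (-1.13 for RNR2 and -1.36 for RNR4).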

How the data were processed

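The authors scanned the arrays with a GenePix 4000A scanner, subtracted background and normalized within arrays by LOWESS (smooth parameter 0.33), per the labels' design text, and the submitters' processing notes name limma 2.12.0. The deposited log2 values are Cy3 over Cy5 ratios. Direct arrays were multiplied by -1, since the labels put sub1Δ in Cy5 there; whether the authors had already turned the swapped arrays is not stated. Spots of a gene were averaged, then the 2 arrays of a dye swap, both required. limma 3.58.1 (R 4.3.3) was fitted to the 4 means, with a coefficient per condition, eBayes over all fitted features and Benjamini-Hochberg adjustment at 0.05. The fit was tried on simulated dye-swap means, drawn independently around 0. These lacked the shifted medians and the dye-swap disagreement of the real arrays, so the trial does not show how reliable the calls are here. The fit did not pair experiments of the same number across conditions, although the untreated cells were an aliquot taken at time 0. Whether same-numbered experiments shared cultures cannot be told from the correlation of their deviations across features (0.0998). The number of arrays limits the precision, and where cultures are not stated to be separate, p-values measure only the spread between these experiments.

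Symbols came from the platform annotation: 3344 spots had 1 gene symbol, 387 several and 2485 none. All 63 member spots matched RefSeq by gene identifier. Members and lists were chosen with earlier results of these data known. By rule, array values are printed for members tested after 4NQO or with an unadjusted p under 0.05, and ranges for the rest; other array values were added after they were seen. A planned search for promoter motifs was not run, since no promoter sequences were used here. Alternatives changed the dye direction, centring, scaling, missing-value rule, replicate structure and left-out arrays or experiments.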

Additional observations from a re-analysis of the deposited data

Results flagged for a closer look

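In 44 sets of 4 arrays of 1 repair gene in 1 condition, the gap of the highest or lowest value to its nearest neighbour was set against the whole range, and chance alone exceeds the limit in about 1 in 20 sets. It was exceeded 2 times, both by the dye-swapped array of 4NQO experiment 2, which had the fewest values. POL30 stood at 1.18 there, with the other 3 arrays between -2.78 and -2.63. SLX5 stood at -1.86, with the others between -0.23 and 0.04. The 4 arrays of a set hold 2 pairs of RNA samples. The part of this array in both results was not tested beyond leaving it out.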

How the results depend on the processing

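Depending on the processing, the 428 features called after 4NQO became 0 (dye-swapped arrays taken as already turned, 1 array of a dye swap allowed, features on all 8 arrays only, or without the dye-swapped array of experiment 2 in the 4NQO condition, the untreated one or both), 212 (array medians centred), 157 (arrays centred and scaled), 94 (condition fitted alone), 274 (dye-swap pair as a random block) or 174 (spread moderated over tested features). Repair genes called after 4NQO became 2 with spot blocks centred, RAD50 (-1.81) and TEL1 (-1.86). The median of -1.10 became 0.19 (already turned), -0.64 (medians centred), -0.49 (blocks), -0.54 (scaled) and -0.79 (without the dye-swapped array of 4NQO experiment 2, or of both conditions). In untreated cells the 1 feature called became 0 (medians centred, 1 array allowed, all 8 arrays, arrays independent, random block, any left-out array, or spread over tested features), 3 (blocks), 25 (scaled) and 42 (alone). The untreated median of -0.02 became 0.10 (already turned), 0.08 (medians), 0.06 (blocks), -0.26 (1 array allowed) and -0.12 (all 8 arrays). For the difference, 0 features called became 2 with blocks centred, and the median of -0.68 became -0.17 (already turned), -0.33 (medians), -0.26 (blocks, or without both arrays), -0.23 (scaled), -0.43 (1 array allowed) and -0.78 (without the untreated array). With the swaps taken as already turned, CHK1 (1.48), RNR2 (-1.13) and RNR4 (-1.36) changed sign, as did 14 of the 20 repair genes tested after 4NQO, 12 of 24 in untreated cells and 4 of 8 differences. The causes were not tested.

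Leaving out each experiment in turn gave 94 to 338 features called after 4NQO, 0 to 2 repair genes (RAD17 at -2.15 without experiment 1; RAD55 at -2.85 and POL30 at -2.71 without experiment 2) and a median from -1.10 to -0.32. In untreated cells it gave 0 to 42 features, 0 repair genes and a median from -0.27 to -0.02, and for the difference 0 to 53 features and a median from -0.74 to -0.27. The lone experiment left was assumed to vary like the others. With the experiment number as a replicate block the difference had 0 features and 0 repair genes called and a median of -0.68. The alternatives without the dye-swapped array of untreated experiment 2, without both such arrays, and with the spread moderated over tested features were chosen after seeing the data. Missing values limit what could be tested, and the signal over background is not analysed here.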
